A study of Lithospermum officinale with 3 samples.

Results

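In *Lithospermum officinale*, a medicinal herb in the family Boraginaceae, 64 assembled transcripts (unigenes) stood higher in root and in stem than in leaf. Their root and stem levels lay within 4-fold of each other. The 64 unigenes were chosen by expected counts as follows. The 100 unigenes most counted over the libraries were set aside, and each count was divided by its library's remaining sum. A member had at least 50 expected counts in stem, a scaled level in stem and in root at least 4 times that in leaf, and a root to stem ratio above 0.25 and below 4, with counts of 0 taken as 0.5. This left 64 of the 77047 unigenes in the series, and 64 of the 12018 that lay outside the 100 most counted and had 50 or more stem counts. The same counts chose the members, so their ratios describe them and carry no test.

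RNA was sequenced from root, stem and leaf of 2-year-old plants grown outdoors, with 1 library per tissue, and no treatment was applied. The sources used here do not state how many plants gave each library. Unigenes were put together from reads alone, with no genome, so pieces or variants of 1 locus can carry separate numbers. A single library per tissue gives no spread between replicates, so tissues were compared by values and counting intervals only.

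Stem and root form the axis of the plant and share vascular tissue, a cambium and, in older plants, secondary xylem and a protective outer layer. The leaf blade consists largely of photosynthetic mesophyll with fine veins. Roots of several Lithospermum species are known for red naphthoquinone pigments, and the series title gives the search for genes of specialized metabolism as its aim. The files do not pair unigene numbers with gene names or sequences. No member below therefore has a known role, and the tissue labels could not be checked against marker genes. In whole organs, fewer cells of a type and less RNA per cell cannot be told apart.

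Expected counts summed to 10045956 for root, 4469828 for stem and 3490670 for leaf. Outside the 100 most counted unigenes these sums were 4351427 for root, 2525988 for stem and 1432056 for leaf. The limit that a count of 0 allows, 3 counts, equals 0.689 CPM (counts scaled to the remaining sum) in root, 1.19 CPM in stem and 2.09 CPM in leaf. Intervals and limits cover counting error only.

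Together the 64 unigenes held 25553 counts in root, 9855 in stem and 605 in leaf. This was 0.254% of the root library (95% exact binomial interval 0.251% to 0.257%), 0.220% of the stem library (0.216% to 0.225%) and 0.0173% of the leaf library (0.0160% to 0.0188%). Outside the 100 most counted unigenes, the scale used for the ratios, the shares were 0.587% in root, 0.390% in stem and 0.0422% in leaf. Root thus held more than stem on both scales, and leaf held far less, as the rule requires. The 5 most counted members of each library held 44.1% of the root counts of all members, 35.0% of their stem counts and 32.1% of their leaf counts.

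Most members were of moderate level. Per length, in deposited TPM (a level scaled for length and library), the median level was 24.9 in root, with a range of 2.54 to 1083. It was 14.4 in stem, with a range of 3.31 to 360, and 1.16 in leaf, with a range of 0 to 21.6. At 100 TPM or more stood 6 members in root and 4 in stem, and 4 did so in both. Below 10 TPM stood 15 in root and 22 in stem. In leaf, 29 of the 64 were under 1 TPM and 8 reached 5 TPM. Among all 77047 unigenes ranked by TPM, the median member stood at rank 4158.5 in the root library, 6618 in the stem library and 46491 in the leaf library. The minimum of 50 stem counts itself favours a high rank in stem. The 12018 unigenes with that minimum had medians of 12.3 TPM in root, 13.6 TPM in stem and 8.13 TPM in leaf.

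**Figure D1:**
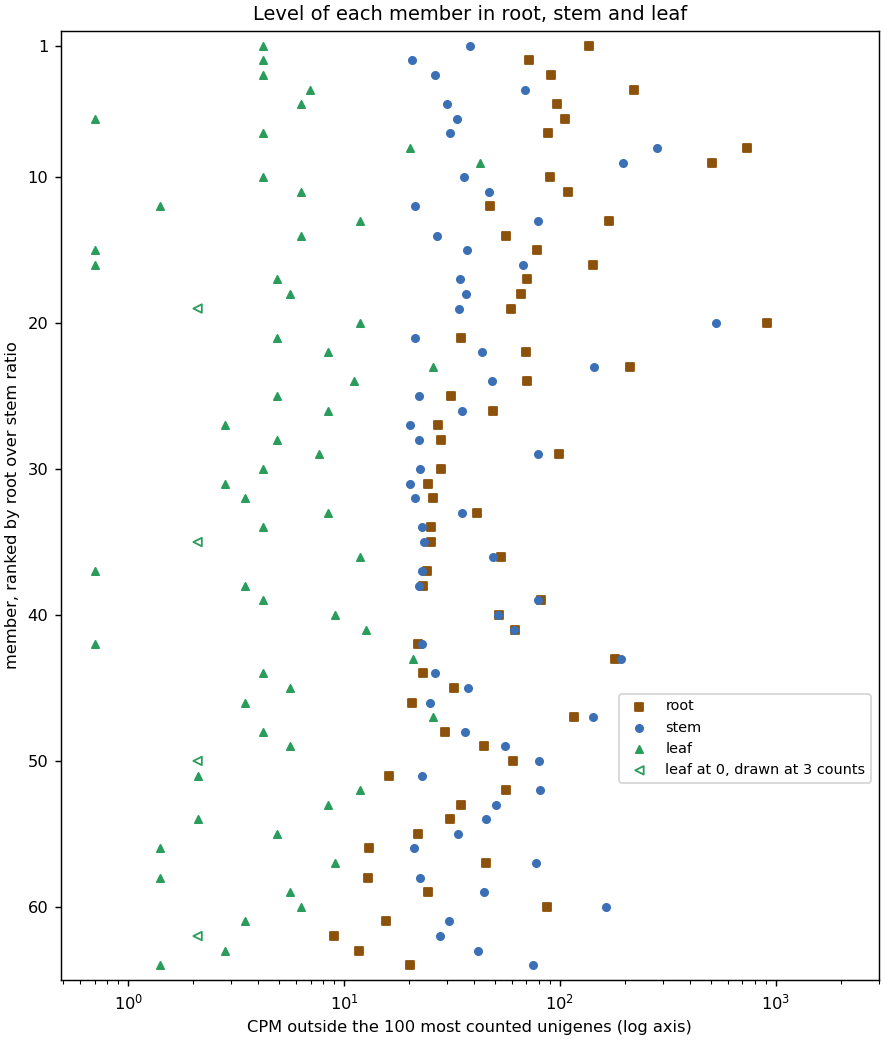
Level of each of the 64 members (rows, ranked by root over stem ratio) in root (squares), stem (circles) and leaf (triangles), in CPM outside the 100 most counted unigenes on a log axis. The leaf points lie left of the root and stem points in every row, and the 4 members with no leaf count are drawn as open triangles at 3 counts.

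Unigene39983 and Unigene52332 were the 2 members of highest level in root and in stem. Unigene39983, 991 nt long, had 3962 counts in root, 1341 in stem and 17 in leaf, which was 682 TPM in root, 347 TPM in stem and 5.46 TPM in leaf. Its scaled level was 76.7 times leaf in root (95% counting interval 47.8 to 132) and 44.7 times leaf in stem (27.8 to 77.0). It ranked 83rd of all unigenes by TPM in root and 131st in stem. Unigene52332, 591 nt long, had 3215 counts in root, 711 in stem and 29 in leaf, or 1083 TPM in root, 360 TPM in stem and 18.2 TPM in leaf. It stood 36.5 times leaf in root (25.4 to 54.6) and 13.9 times leaf in stem (9.59 to 20.9). Both lay far above leaf in both organs and were higher in root than in stem. These 2 most counted members held 28.1% of the root counts of all members, 20.8% of their stem counts and 7.60% of their leaf counts. Without them the shares were 0.183% of the root library, 0.175% of the stem library and 0.0160% of the leaf library.

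Root was set against leaf, and stem against leaf, over the 12018 unigenes with 50 or more stem counts. A root over leaf ratio of 4 or more was reached by 415 (3.45%), a stem over leaf ratio of 4 or more by 283 (2.35%), and both by 89 (0.741%). The full rule, with the limits on root over stem, took 64 of them (0.533%). Over these 12018 unigenes the median ratio was 1.13 for root over leaf and 1.16 for stem over leaf, so neither organ was shifted much against leaf on this scale. The members' median ratio was 9.11 for root over leaf (8.86 with leaf counts of 0 set to 3) and 7.30 for stem over leaf, which was the same with that setting. A scale of deposited TPM moved the log2 ratios by 0.71 for root over leaf and 0.51 for stem over leaf. On that scale 177 unigenes met the rule, and 62 of the 64 were among them.

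**Figure D2:**
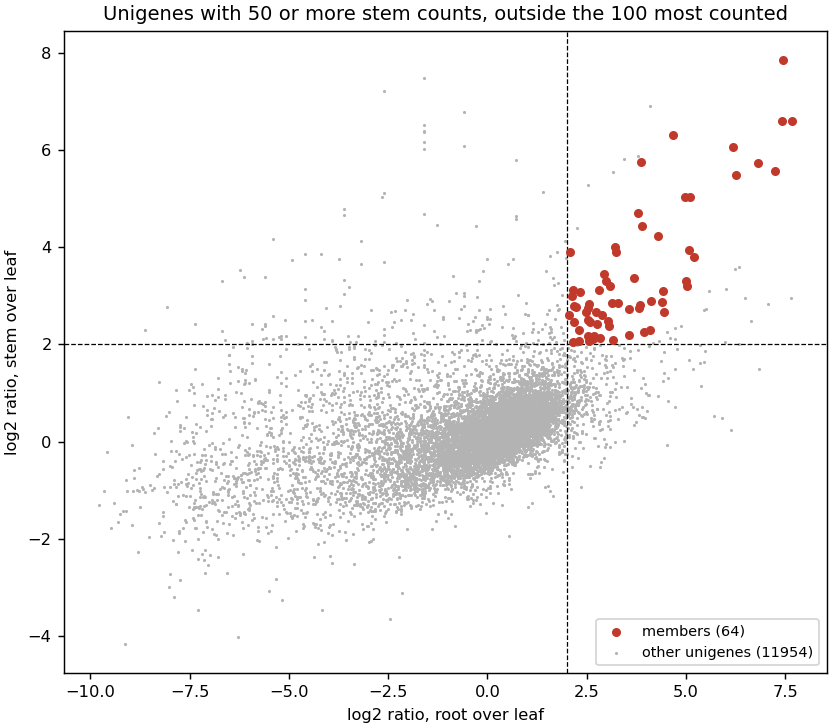
Log2 ratio of stem over leaf against log2 ratio of root over leaf for the 12018 unigenes with 50 or more stem counts outside the 100 most counted, with members in red and dashed lines at 4-fold. The 64 members lie past both lines; the 25 other unigenes past both lines have a root to stem ratio outside the limits of the rule.

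The ratios to leaf covered a wide range, and many lay near the limit. Leaf counts of 0 were set to 3 here, which gives ratios above the lower interval bounds of these members. With that setting 28 members had a root over leaf ratio under 8, 18 a ratio of 8 to 16 and 18 a ratio of 16 or more. For stem over leaf, 34 had a ratio under 8, 17 a ratio of 8 to 16 and 13 a ratio of 16 or more. Both ratios were under 8 in 20 members, and both were 16 or more in 9, of which 2 had no leaf count. Unigene41907, Unigene40510, Unigene49579, Unigene49582 and Unigene49308, also among the 9, had 1 leaf count, which was kept and not set to 3. At 3 leaf counts, stem over leaf would be under 16 in Unigene41907, Unigene49582 and Unigene49308. Both ratios would stay at 16 or more in Unigene40510 and Unigene49579.

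How well depth fixed these ratios differed between members. The whole counting interval lay past 4-fold for root over leaf in 31 of the 64, against 1.71% of the 12018. It did so for stem over leaf in 26, against 0.79%, and for both in 19, against 0.175%. Since the rule used these ratios, nothing follows from the contrast with the background. In 12 members the root interval alone passed 4-fold, in 7 the stem interval alone, and in 26 neither did. Leaf counts were mostly low, with a median of 6.5 and a range of 0 to 61. They were 0 in 4 members, 1 to 3 in 11, 4 to 9 in 30 and 10 or more in 19. Both intervals lay past 2-fold in 61 of the 64.

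No leaf count was recorded for 4 members. Unigene19873, 637 nt long, had 264 counts in root and 203 in stem, or 80.1 TPM in root and 92.7 TPM in stem. With leaf set to 3 counts its ratio to leaf was 29.0 in root and 38.4 in stem. Its lower interval bounds were 23.4 for root over leaf and 30.9 for stem over leaf, the latter the largest among the members. The other 3 had 39 to 259 counts in root and 59 to 86 in stem. With leaf set to 3 counts their ratios to leaf were 4.28 to 28.4 in root and 11.1 to 16.3 in stem. Their lower interval bounds were 3.32 to 22.9 for root over leaf and 8.79 to 12.9 for stem over leaf. At this depth 0 counts allow a leaf level of up to 2.09 CPM in each of them.

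Unigene49579 had the second largest lower bound of root over leaf, after Unigene39983. This 1617 nt unigene had 617 counts in root, 171 in stem and 1 in leaf, which was 60.2 TPM in root, 25.1 TPM in stem and 0.18 TPM in leaf. Its ratio was 203 for root over leaf and 96.9 for stem over leaf. With a single leaf count the intervals were wide, from 36.3 to 8033 in root and from 17.2 to 3851 in stem.

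Root was then set against stem among the members. The rule held this ratio between 0.25 and 4, and within that window the members spread over nearly the whole width, with quartiles of 0.807 and 2.06 around a median of 1.19. Root was higher by an interval that leaves out 1 in 27 members, against 28.6% of the 12018 unigenes. Stem was higher in 15, against 36.1%, and in 22 the interval held 1. The limits on this ratio are part of the rule, so these numbers are a description. Root was higher by 2-fold or more in 17 members, and stem was higher by 2-fold or more in 3. The set therefore runs from unigenes near the root-peaked limit to a few near the stem-peaked one.

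**Figure D3:**
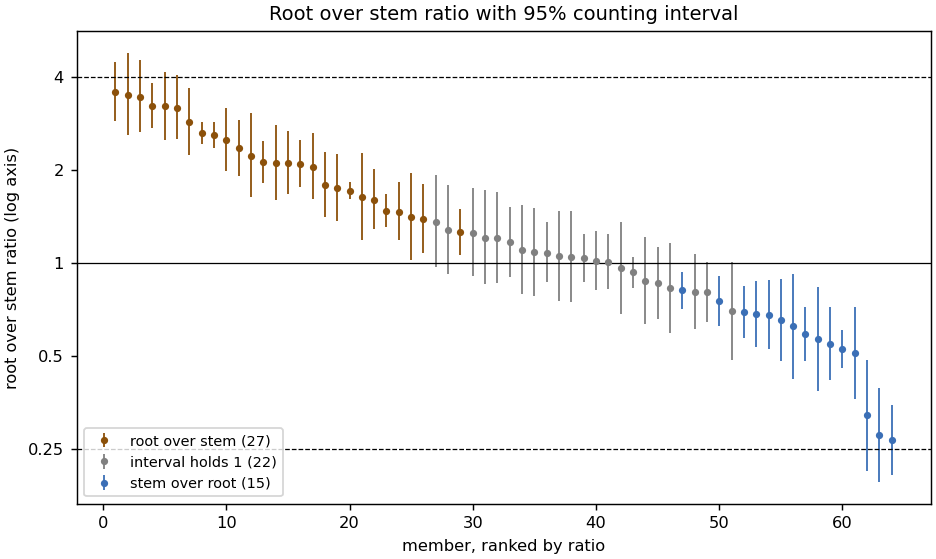
Root over stem ratio (log axis) of the 64 members in order of ratio, with 95% counting intervals as bars and the limits of the rule at 0.25 and 4 dashed. Brown points (27) lie above 1 with their interval, grey points (22) have an interval that holds 1, and blue points (15) lie below 1.

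At the root end stood Unigene42389 and Unigene1503, with the largest lower bounds of root over stem. Unigene42389, 1119 nt long, had 596 counts in root, 97 in stem and 6 in leaf, or 88.7 TPM in root, 21.7 TPM in stem and 1.66 TPM in leaf. It was 3.57 times higher in root than in stem (2.87 to 4.47), so its interval crosses the limit of 4. Unigene1503, 823 nt long, had 965 counts in root, 174 in stem and 10 in leaf, or 209 TPM in root, 56.7 TPM in stem and 4.04 TPM in leaf, and was 3.22 times higher in root (2.74 to 3.81). In stem they stood 9.17 and 9.86 times above leaf.

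At the stem end stood Unigene3521 and Unigene58266, with the smallest upper bounds. Unigene3521, 1526 nt long, had 88 counts in root, 190 in stem and 2 in leaf, or 9.16 TPM in root, 29.7 TPM in stem and 0.39 TPM in leaf. Its root over stem ratio was 0.269 (0.206 to 0.348). Unigene58266, 1243 nt long, had 51 counts in root, 106 in stem and 4 in leaf, or 6.71 TPM in root, 21.0 TPM in stem and 0.98 TPM in leaf, with a ratio of 0.279 (0.196 to 0.394). In root Unigene58266 was only 4.20 times leaf, with an interval of 1.54 to 15.99. The root over stem intervals of both cross the lower limit of 0.25.

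Split by this balance, the 27 root-leaning members had a median of 38.7 TPM in root, 14.5 TPM in stem and 1.36 TPM in leaf. The 15 stem-leaning members had medians of 14.9 TPM in root, 29.0 TPM in stem and 0.98 TPM in leaf. The 22 members between them had medians of 11.6 TPM in root, 9.91 TPM in stem and 0.955 TPM in leaf. The 3 leaf medians lay close together. The root median was higher in the root-leaning members and the stem median was higher in the stem-leaning members. The split fixes only the direction of the root over stem ratio in these classes. The middle members were also the least counted, with a median of 61 stem counts, against 93 in the root-leaning and 115 in the stem-leaning members, and a low count widens the interval that defines this class.

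The stem minimum and the limits over leaf had unigenes close to them on both sides, while the gaps at the root over stem limits were wider. The member of fewest stem counts had 51, with 119 in root and 4 in leaf, and the nearest unigene outside had 49, with 74 in root and 5 in leaf. A further 908 unigenes met every criterion except the 50 stem counts. With a stem minimum of 1 count the median leaf level was 0 TPM, so many ratios rested on a leaf count of 0 taken as 0.5. Both intervals over leaf then lay past 4-fold in 21 unigenes, against 19 with the minimum of 50. For stem over leaf alone these numbers were 33 and 26, and for root over leaf alone 83 and 31. For stem over leaf the nearest member stood at 4.14 and the nearest unigene outside at 3.97, and 216 failed by this ratio alone. For root over leaf these values were 4.14 and 3.98, and 48 failed by it alone. At the lower limit of root over stem they were 0.269 and 0.234, with 6 outside, and at the upper limit 3.57 and 4.45, with 19 outside. The count minimum therefore removed many more unigenes than it let through, but few with both intervals past 4-fold over leaf.

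Length was not part of the rule, although a minimum on counts favours long unigenes. The members had a median length of 1539.5 nt, with quartiles of 1125 and 1946.5 nt. The 12018 unigenes with the same stem minimum had a median of 1828 nt, with quartiles of 1255 and 2550 nt. Over 2000 nt were 14 of the 64 members (21.9%) and 42.6% of the 12018, and over 1000 nt were 79.7% of the members and 85.6% of the 12018. The members thus held a smaller share of long unigenes than that background. Other uneven groups with the same minimum lay in the same range, with a median of 1462 nt for the 129 unigenes at least 4 times higher in root than in both others. It was 1306 nt for the 152 at least 4 times higher in stem than in both others and 1505 nt for the 1547 at least 4 times higher in both shoot organs than in root. No test was made between these groups.

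**Figure D4:**
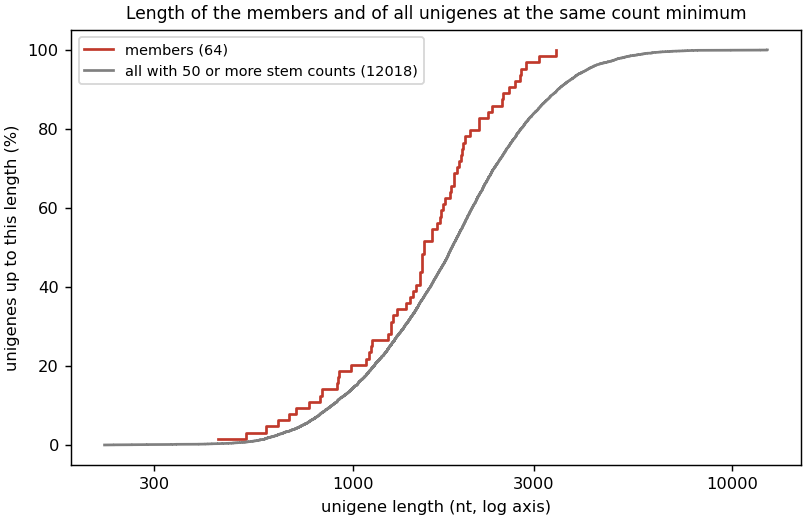
Percent of unigenes up to each length (nt, log axis) for the 64 members (red) and for all 12018 unigenes with 50 or more stem counts outside the 100 most counted (grey). The red line lies left of the grey one at the quartiles and the median, with medians of 1539.5 and 1828 nt. At the short end the grey line starts first, at 222 nt against 442 nt.

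The longest and the shortest member differed in level per length although their counts were alike. Unigene58221, at 3431 nt, had 119 counts in root, 51 in stem and 4 in leaf, which was 5.15 TPM in root, 3.31 TPM in stem and 0.32 TPM in leaf. Unigene65796, at 442 nt, had 152 counts in root, 54 in stem and 7 in leaf, which was 79.4 TPM in root, 42.6 TPM in stem and 6.84 TPM in leaf. The first was among the lowest members per length and the second among the higher ones.

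Unigene numbers were not part of the rule either, and what their order stands for is not given in the sources used here. Over the 4353 pairs of consecutive numbers among the 12018, Spearman's rho between the 2 partners was 0.290 for root over leaf, 0.204 for stem over leaf and 0.300 for root over stem. Over the 3486 pairs whose numbers differ by 10 it was -0.0031 for root over leaf, 0.0008 for stem over leaf and 0.014 for root over stem. These values run across unigenes of the same libraries, and consecutive unigenes may be parts or variants of 1 locus.

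Of the 64 members, 8 (12.5%) had another member as the next number up or down. Of the 11954 unigenes with the same stem minimum that were not members, 28 (0.234%) stood next to a member. Of these 28, 0 reached a ratio of 4 over leaf in root or in stem, where 3.45% and 2.35% of the 12018 did, a background under which 0 of 28 is no result. Their median ratios were 1.13 for root over leaf and 1.15 for stem over leaf. Those medians were close to the 1.13 and 1.16 of all 12018. Neighbours within the same group were also found for 19.4% of the 129 root-high, 8.55% of the 152 stem-high and 25.2% of the 1547 shoot-high unigenes, shares that also move with the size of a group.

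The 8 members formed a run of 4 numbers and 2 pairs. The run was Unigene49579, Unigene49580, Unigene49581 and Unigene49582, which were 1617, 1621, 910 and 1262 nt long. Unigene49579 is described above. Unigene49580 had 355 counts in root, 199 in stem and 6 in leaf, or 34.5 TPM in root, 29.1 TPM in stem and 1.09 TPM in leaf. Unigene49581 had 206 counts in root, 54 in stem and 2 in leaf, or 39.4 TPM in root, 15.5 TPM in stem and 0.71 TPM in leaf. Unigene49582 had 105 counts in root, 58 in stem and 1 in leaf, or 13.6 TPM in root, 11.3 TPM in stem and 0.24 TPM in leaf. On the scale used here, all 4 had an interval wholly past 4-fold over leaf in root and in stem. The narrowest margin was that of Unigene49581 in stem, with a ratio of 15.3 (4.04 to 130). Scaling by TMM, DESeq2 or upper quartile factors moved log2 stem over leaf by -0.0198, -0.0450 and -0.0743. Each shift takes this lower bound under 4.

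The run was not uniform between root and stem. Unigene49579 and Unigene49581 were higher in root, by 2.09 times (1.77 to 2.50) and 2.21 times (1.63 to 3.05). Unigene49580 and Unigene49582 had intervals that hold 1, with ratios of 1.04 (0.868 to 1.24) and 1.05 (0.756 to 1.47). The numbers on both sides were not members. The one before had 21 root counts, 3 stem counts and 2 leaf counts, too few to place it, with ratios to leaf of 3.46 in root (0.845 to 30.4) and 0.850 in stem (0.0974 to 10.2). The one after had 90 root counts, 46 stem counts and 16 leaf counts, with ratios to leaf of 1.85 in root and 1.63 in stem. Whether the 4 come from separate genes could not be told from counts, and reads shared between near-identical unigenes may have been split or left out.

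**Figure D5:**
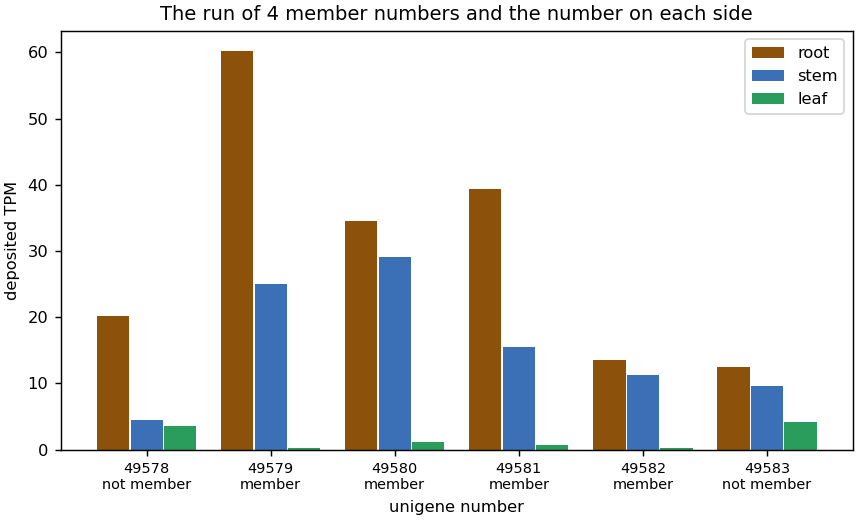
Deposited TPM in root, stem and leaf (1 bar per library) for the run of 4 members with consecutive numbers and for the unigene number on each side. The members reach 13.6 to 60.2 TPM in root and 0.18 to 1.09 TPM in leaf. The flanking numbers have 20.2 and 12.5 TPM in root and 3.63 and 4.13 TPM in leaf, the 3.63 resting on 2 leaf counts over 317 nt.

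The 2 pairs differed from each other. In the pair numbered 40510 and 40511, the first had 340 root counts, 94 stem counts and 1 leaf count, and the second had 259 root counts, 86 stem counts and 0 leaf counts. Both were higher in root than in stem, by 2.10 times (1.67 to 2.67) and 1.75 times (1.36 to 2.26). In the pair numbered 28878 and 28879, the first had 96 root counts, 85 stem counts and 7 leaf counts, and the second had 213 root counts, 89 stem counts and 12 leaf counts. These partners leaned apart, with root over stem ratios of 0.656 (0.485 to 0.888) and 1.39 (1.08 to 1.80). A further 2 pairs of members lay 2 numbers apart, so 12 members (18.8%) had another within 2 numbers. These pairs were chosen for description after their values were seen. Between the partners numbered 52836 and 52838, the middle unigene had 101 root counts, 25 stem counts and 1 leaf count and missed the stem minimum. Between those numbered 41907 and 41909, the middle one had 433 counts in root, 71 in stem and 36 in leaf, which was 3.96 times leaf in root and 1.12 times leaf in stem.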

How the data were processed

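RNA sequencing libraries from root, stem and leaf, 1 per tissue, were used as deposited. Per the submitters' processing notes, Trimmomatic and RSEM were used (no versions); assembler and aligner: not given in the sources used here. The authors deposited for each unigene an expected count, TPM and FPKM with length and effective length, per the file headers. All expected counts were whole numbers, and the deposited table of FPKM for the 3 tissues held the same values for the members (0 differences).

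Counts outside the 100 most counted unigenes were scaled by their sum. Ratios carry exact conditional binomial (Clopper-Pearson) 95% intervals, computed under Python 3.11.15 (pandas 2.3.3, numpy 2.4.6, scipy 1.17.1). The intervals were also run on simulated counts that hold counting error only, which cannot test variation between plants or libraries. Scaling factors from edgeR 4.0.16 and DESeq2 1.42.0 under R 4.3.3 were alternatives; neither tool's test was run, since 1 library per tissue leaves no spread to estimate. Median TPM used the deposited values. The members, groups and settings were chosen with earlier results of these data known. Members are named by number: the 2 with the extreme interval bound of each ratio, the 2 of highest TPM in root and in stem, the longest, the shortest and the longest run of consecutive numbers. Lists of cell wall, naphthoquinone, photosynthesis and transport genes need gene names and were not tested.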

Additional observations from a re-analysis of the deposited data

How the results depend on the processing

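No paired analysis was possible because root, stem and leaf have a single library each, and no replicate can be dropped. Of 126 values recomputed, 63 stayed within 1.5 times of the value reported (for shares, within its binomial interval) and 63 moved. TMM and DESeq2 factors each gave 66 members and kept all 64. Upper quartile factors gave 66 and kept 59, with log2 shifts of 0.13 for root over leaf and 0.20 for root over stem. Thinning to 1432056 counts outside the 100 most counted gave 35 members, 33 of them among the 64, since the minimum of 50 then applied to fewer stem counts; 16 were higher in root than in stem and 7 in stem than in root. Depth limits all ratios to leaf.

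Library totals as scale, which moved log2 ratios by 0.46 for stem over leaf and by -0.38 for root over stem, gave 118 members. Of these, 59 had a root over leaf interval past 4-fold, 47 a stem over leaf interval and 30 both, while 54 were higher in root than in stem and 24 in stem than in root. Deposited TPM gave 177 members, 16 with a neighbour in number. With a stem minimum of 10 counts there were 421 members: 81 had a root over leaf interval past 4-fold, 121 were higher in root and 44 in stem, 33 had a neighbour, and the median TPM for root, stem and leaf was 5.97, 4.45 and 0.36. With 1 count there were 972: 83 had that interval, 173 were higher in root and 44 in stem, 54 had a neighbour, the median length was 785 nt, and the median TPM for root, stem and leaf was 4.43, 3.33 and 0. With 200 counts there were 11: root over leaf intervals passed in 9, stem over leaf in 8 and both in 7, while 6 were higher in root and 4 in stem, 0 had a neighbour, and the median TPM for root, stem and leaf was 94.99, 57.7 and 4.62.

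At 2-fold over leaf there were 440 members, 38 with a neighbour, holding 1.65% of the root, 1.46% of the stem and 0.357% of the leaf library. At 8-fold there were 23, holding 0.138% of root, 0.113% of stem and 0.00401% of leaf. Root over stem within 0.5 to 2 left 2 members with a neighbour and shares of 0.130% of root, 0.152% of stem and 0.0118% of leaf; without limits they were 0.603% of root, 0.287% of stem and 0.0243% of leaf. With the 200 most counted unigenes left out the shares were 0.184% of root and 0.177% of stem. Intervals past 2-fold were found for root over leaf in 62 members, for stem over leaf in 63 and for both in 61; past 8-fold for root over leaf in 19, stem over leaf in 12 and both in 9. Past 1.5-fold, 4 members were higher in stem than in root.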
